A study of Homo sapiens with 2 samples.

Results

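The endoplasmic reticulum (ER) genes described here are 43 genes of stress sensing, protein folding, ER-associated degradation (ERAD) and the translocon, taken by gene symbol from 58735 genes of 1 RNA-seq count table. They comprise 8 genes of stress sensing, 17 folding genes, 15 ERAD genes and 3 translocon subunits, and all 43 were found. The 8, called sensors or sensor genes below for short, are ERN1, ATF6, ATF6B, the transcription factor genes XBP1, CREB3 and CREB3L2, and the protease genes MBTPS1 and MBTPS2. The 2 libraries come from SUIT-2, a human pancreatic adenocarcinoma cell line, in a derivative labelled as highly metastatic. One library carries the treatment label NC and is called untreated here. The other was made from cells treated with dihydroartemisinin (DHA), the active metabolite of the antimalarial artemisinins, whose endoperoxide reacts with ferrous iron and heme. No source used here states the dose, the exposure time or a vehicle. With 1 library per condition no difference has a replicate check, no p-value was computed, and every "higher" or "lower" compares these 2 libraries.

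The ER folds secreted and membrane proteins. Unfolded protein there is sensed by IRE1 (gene ERN1), which splices XBP1 mRNA, by ATF6, which the proteases S1P and S2P (genes MBTPS1 and MBTPS2) release from the membrane after its transport to the Golgi, and by PERK, a kinase of the translation factor eIF2 alpha. XBP1 and ATF6 induce chaperones, disulfide isomerases and ERAD genes. ERAD takes misfolded protein through the SYVN1-SEL1L ubiquitin ligase out of the membrane to the ATPase VCP and the proteasome. The exocrine pancreas is known for its large secretory load.

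Counted reads came to 15452609 without and 14521101 with DHA. Some exon sequence is shared with another gene in 22 of the 43 members, and no source states whether strand was used in counting. Genes were compared when either library had 50 reads or more. That left 12064 genes and 41 of the 43 members, and the fewest reads of any of these 41 were 259 (untreated) and 291 (DHA). Of the ductal carcinoma markers KRT7, KRT8, KRT18, KRT19, EPCAM and MUC1 all 6 were detected, summing to 50270 reads (untreated) and 19106 (DHA), but KRT7 had only 49 and 26. This lower marker sum moves with the treatment, and its part in the results below was not tested. The extraction text names retina, yet RCVRN, CRX and SAG had 0 reads in both libraries, and RPE65 had 96 and 74. The 3 blood markers also had 0 reads in both, and 3 reads, the upper limit that a count of 0 allows, equal 0.195 and 0.206 counts per 1e6 scaled reads (CPM). Of 4 pancreatic acinar markers PRSS1 and CPA1 were at 0 in both libraries, and the list summed to 2 and 10 reads, with CTRB1 at 1 and 10. Of 4 fibroblast markers COL1A2 and DCN were at 0 in both libraries. COL1A1 had 83 and 11 reads and LUM 21 and 1, and the list summed to 104 and 12 reads. Endothelial CDH5 was at 0 in both libraries, VWF had 1 and 3 reads and PECAM1 had 280 and 54. The 3 endothelial markers summed to 281 and 57 reads, almost all from PECAM1.

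Most ERAD genes had ratios above 1 in the DHA library, whereas folding genes were split and the abundant isomerase genes PDIA4 and PDIA6 had ratios below 1. Of 14 ERAD genes compared, 13 had log2 ratios above 0, and their median was 0.64. Of 16 folding genes, 8 were above 0 and 8 below, with a median of 0.01. The 8 sensor genes had a median of 0.26 with 6 above 0, and the 3 translocon genes one of 0.22. All 12064 genes had a median of 0.04, and 52.2% of them were above 0. For the 6551 genes with at least 500 reads the median was 0.10, and 56.9% were above 0. The ERAD median exceeded the folding median by 0.63, and the folding median, close to 0, had the other sign with DESeq2 size factors (-0.03), upper-quartile scaling (-0.05) and a minimum of 500 reads (-0.02). Both scalings shift all genes alike, and the median of all genes moved with them to -0.002 and -0.03. Counting intervals lay wholly above 1 for 28 of 41 members, against 39.8% of all genes, and wholly below 1 for 10, against 35.5%. Such intervals narrow with depth, and among the 6551 genes with at least 500 reads the shares were 49.3% and 35.6%. The medians are descriptions of named genes and not a test of one role against another.

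A gene passed the size rule when its ratio was at least 2-fold and its 95% counting interval excluded 1. On the higher side 5 of 41 members (12.2%) passed, against 6.72% of all genes compared. They were the sensor ERN1, the oxidase ERO1B and the ERAD genes HERPUD1, SYVN1 and SELENOS. On the lower side 0 of 41 passed, against 10.3% of all genes. At 1.5-fold, 12 members (29.3%) were higher against 18.9% of all genes, and 8 of these 12 were ERAD genes. Only PDIA4 was lower at 1.5-fold, against 19.2% of all genes. Members had many reads, so the same shares among the 6551 genes with at least 500 reads are given too, and they were 6.58% higher and 5.79% lower at 2-fold and 20.8% higher and 13.7% lower at 1.5-fold.

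**Figure D1:**
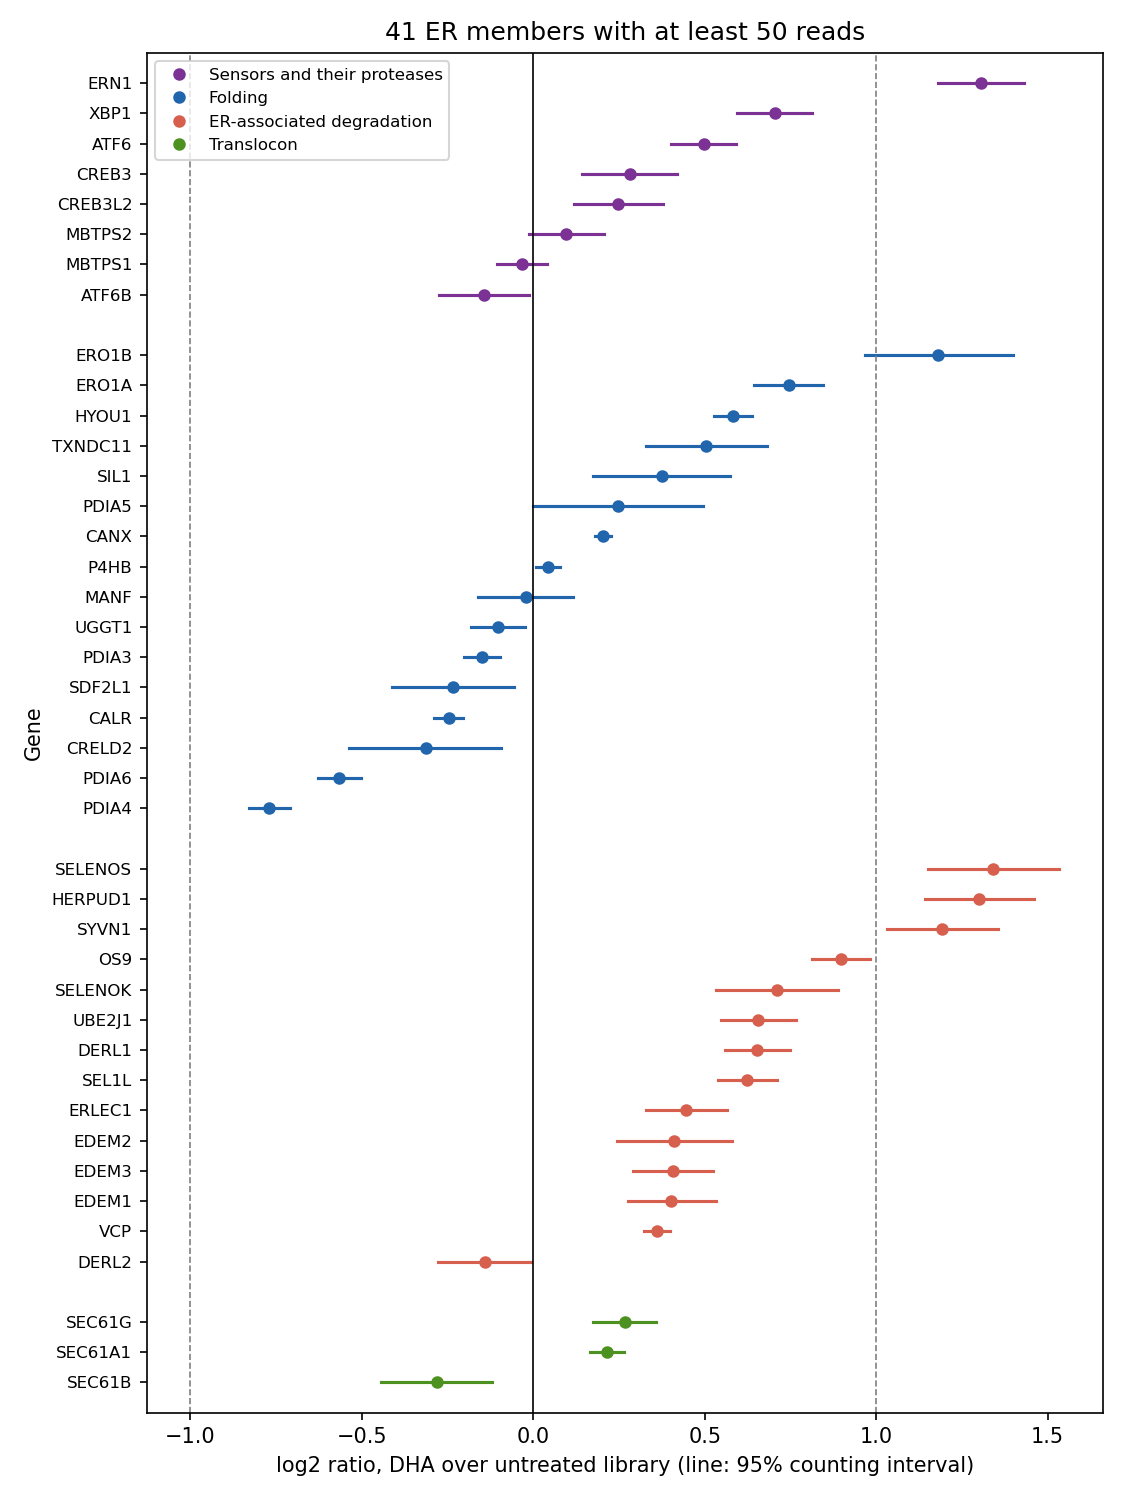
Log2 ratio of the DHA over the untreated library for the 41 members with at least 50 reads, by role, each point 1 gene and each line its 95% counting interval (dashed lines at 2-fold). The 13 ERAD genes other than DERL2 lie above 0, while folding genes run from 1.18 (ERO1B) to -0.77 (PDIA4).

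The start-site sequence of several members holds a known ER stress element. Of these, 5 are shown, picked with their ratios known, because they carry such an element yet lie on both sides of 1. The elements searched were the ER stress response element (ERSE), CCAAT and CCACG with 9 bases of any kind between them, ERSE-II, ATTGG and CCACG with 1 base between them, the unfolded protein response element (UPRE), written TGACGTGG, and the ATF4 composite site, written TGATGNAA. Both strands were searched in RefSeq windows (GRCh38.p14) of 300 bases, 250 before and 50 after each start site, and 40 of the 43 members had a window (DERL1, DERL3 and PDIA3 did not). A gene could have several windows (35116 for 27305 genes), and a match in any of them counted. Printed is the window with the most ERSE or ERSE-II matches, so it need not be the main promoter. Those of PDIA6 and CRELD2 lie inside the annotated gene span, and which start these cells use was not tested. Below, the 250 bases before the start are printed 5′ to 3′ on the gene's strand, with the fixed letters of ERSE or ERSE-II matches in capitals.
HERPUD1, chr16:56931892-56932141, plus strand: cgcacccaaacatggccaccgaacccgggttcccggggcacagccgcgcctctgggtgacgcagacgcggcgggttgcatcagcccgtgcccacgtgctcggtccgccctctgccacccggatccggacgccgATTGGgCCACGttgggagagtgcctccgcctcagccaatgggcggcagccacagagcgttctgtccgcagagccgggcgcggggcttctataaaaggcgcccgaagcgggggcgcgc
ERO1B, chr1:236281959-236282208, minus strand: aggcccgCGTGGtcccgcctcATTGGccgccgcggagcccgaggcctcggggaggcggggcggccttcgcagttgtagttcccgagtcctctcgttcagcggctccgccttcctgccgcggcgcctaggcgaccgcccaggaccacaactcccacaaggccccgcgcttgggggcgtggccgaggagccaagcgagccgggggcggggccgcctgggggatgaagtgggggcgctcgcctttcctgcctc
XBP1, chr22:28800570-28800819, minus strand: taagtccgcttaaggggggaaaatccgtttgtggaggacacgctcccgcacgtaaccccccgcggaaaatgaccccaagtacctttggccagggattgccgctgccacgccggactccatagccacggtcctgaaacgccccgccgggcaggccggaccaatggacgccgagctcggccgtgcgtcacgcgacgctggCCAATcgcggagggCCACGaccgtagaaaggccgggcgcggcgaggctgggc
CRELD2, chr22:49918384-49918633, plus strand: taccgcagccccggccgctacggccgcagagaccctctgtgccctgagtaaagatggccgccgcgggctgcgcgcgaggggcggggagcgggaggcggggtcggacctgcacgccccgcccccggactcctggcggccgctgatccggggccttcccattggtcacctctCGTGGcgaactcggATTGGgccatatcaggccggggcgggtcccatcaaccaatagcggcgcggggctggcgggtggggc
PDIA6, chr2:10812786-10813035, minus strand: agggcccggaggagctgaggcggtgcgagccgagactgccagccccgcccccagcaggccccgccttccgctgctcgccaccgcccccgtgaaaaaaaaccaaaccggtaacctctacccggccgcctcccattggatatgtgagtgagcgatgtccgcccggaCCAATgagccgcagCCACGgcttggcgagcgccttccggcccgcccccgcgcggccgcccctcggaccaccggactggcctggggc

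ERSE matched in 6 members, CALR, CANX, CRELD2, ERO1B, PDIA6 and XBP1 (15% of 40), against 0.0916% of 27305 genes with a window. ERSE-II matched in HERPUD1, HYOU1 and SDF2L1 (7.5%), against 0.0696% of all genes. Many of these genes are textbook targets, and some served to define the elements, so the excess is background and not a finding of these libraries. The 9 genes with either element had log2 ratios on both sides of 0, with 5 above and 4 below. Their median was 0.20, and that of the 30 compared members with neither was 0.37. HERPUD1 (1.30), ERO1B (1.18), XBP1 (0.70), HYOU1 (0.58) and CANX (0.20) were above 0. PDIA6 (-0.57), CRELD2 (-0.31), CALR (-0.25) and SDF2L1 (-0.23) were below 0, the last at 0.04 once the ratios were corrected for gene length and GC content. UPRE matched in HYOU1, TXNDC11, TXNDC5, UBE2J1 and VCP (12.5% against 0.927% of genes), and in HYOU1 it overlaps 1 of the 2 ERSE-II matches. The ATF4 composite letters were found in HERPUD1, 176 bases before its start, and in CREB3L2 (5% of members against 4.46% of genes). A match of letters is no evidence of binding in these cells. The lack of an exact match in these short windows does not show that a gene has no such element.

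Among the sensors, ERN1, the IRE1 kinase and ribonuclease (ENSG00000178607, chromosome 17, 64039142 to 64130819, minus strand), gave 730 reads without and 1708 with DHA. That is 47.4 and 117 CPM, 2.47-fold higher with DHA (95% counting interval 2.26 to 2.70). Its substrate XBP1 (ENSG00000100219, chromosome 22, 28794555 to 28800597, minus strand) had 1114 and 1718 reads, 1.63-fold higher (1.51 to 1.76). Gene counts do not separate the spliced from the unspliced XBP1 mRNA, so IRE1 activity cannot be read from them. ATF6, the sensor that is itself cut to a transcription factor, had 1589 and 2123 reads, a ratio of 1.41 (1.32 to 1.51). Its paralog ATF6B had 1036 and 888 reads, a ratio of 0.905 (0.827 to 0.991), so the counting intervals of the paralogs did not overlap. The proteases that cut both were near 1, with 3085 and 2856 reads for MBTPS1 (ratio 0.978, 0.929 to 1.03) and 1366 and 1383 for MBTPS2 (1.07, 0.992 to 1.15). CREB3 and CREB3L2, transcription factors processed by the same proteases, had ratios of 1.21 (1.10 to 1.34) and 1.19 (1.09 to 1.30).

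Per gene length the order of the sensors changed between the libraries. CREB3 had the highest untreated level, 27.2 CPM per kilobase of gene length (RPKM), followed by XBP1 with 23.9. In the DHA library XBP1 led with 38.9 and CREB3 had 33.1. ERN1 had the lowest untreated RPKM of the 8, 4.36. With DHA it had 10.8, and CREB3L2 was lowest with 8.06. PERK was not among the 43 genes. Its gene EIF2AK3 had 233 and 265 reads, a ratio of 1.20 (1.003 to 1.44), against 2.47 for ERN1.

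The oxidases of disulfide formation were the folding genes with the highest ratios. ERO1B (ENSG00000086619, chromosome 1, 236215555 to 236281985, minus strand) gave 263 and 565 reads, 2.27-fold higher (1.96 to 2.64). ERO1A, its more widely expressed paralog, had 1313 and 2083 reads, 1.68-fold higher (1.56 to 1.80). Both enzymes pass electrons from disulfide isomerases to oxygen.

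Of the 6 disulfide isomerase genes compared, 3 had ratios below 1 and 3 above. PDIA4 (ENSG00000155660, chromosome 7, 149003062 to 149028641, minus strand) gave 6343 and 3522 reads, 1.71-fold lower (1.64 to 1.78), the lowest ratio of the 41 members compared. PDIA6, an isomerase that also acts on the activated sensors, had 5147 and 3293 reads, 1.48-fold lower (1.42 to 1.55). Of its exon length 25.2% overlaps genes on the other strand, with ATP6V1C2 the largest overlap. PDIA3, the isomerase of the calnexin cycle, had 6313 and 5393 reads, a ratio of 0.902 (0.870 to 0.936). The main isomerase P4HB had 13299 and 12976 reads, a ratio of 1.03 (1.006 to 1.06), and its log2 ratio was 0.04, or -0.02 under the shift of -0.07 that upper-quartile scaling gives all genes. The less abundant TXNDC11 and PDIA5 were above 1, with 457 against 614 reads (1.42, 1.26 to 1.61) and 259 against 291 (1.19, 1.0002 to 1.41). TXNDC5 had only 45 and 48 reads and was not compared. It shares 60.6% of its exon length with other genes, most of all with the readthrough gene BLOC1S5-TXNDC5, which had 0 reads in both libraries. No source used here states how shared reads were counted.

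In sum the 7 isomerase genes gave 31863 reads without and 26137 with DHA, and the 2 oxidase genes 1576 and 2648. The 2 sums thus moved in opposite directions.

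The lectin chaperones CANX (calnexin) and CALR (calreticulin) are paralogs that bind the same glycans and were the most abundant members per length. CANX, membrane-bound, had 28097 and 30645 reads, a ratio of 1.15 (1.13 to 1.17). CALR, the soluble form, had 10594 and 8454 reads, a ratio of 0.843 (0.819 to 0.867). The 2 intervals lie on opposite sides of 1. UGGT1, the folding sensor that returns glycoproteins to them, had 2806 and 2476 reads, a ratio of 0.932 (0.883 to 0.984).

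Partners of the chaperone BiP (gene HSPA5) were also divided. HYOU1, a nucleotide exchange factor and large chaperone, had 4456 and 6314 reads, 1.496-fold higher (1.44 to 1.56). SIL1, the other exchange factor, had 378 and 464 reads, a ratio of 1.30 (1.13 to 1.49). The small secreted or luminal factors lay lower, with MANF at 885 and 825 reads (0.985, 0.894 to 1.08), SDF2L1 at 584 and 470 (0.850, 0.751 to 0.961) and CRELD2 at 390 and 297 (0.805, 0.689 to 0.938). MANF and SDF2L1 changed sign on the log2 scale, to 0.09 and 0.04, once corrected for length and GC content. HSPA5 itself, not one of the 43, had 14447 and 15812 reads, a ratio of 1.16 (1.13 to 1.18), and the chaperone HSP90B1 had 10872 and 9018, a ratio of 0.876 (0.852 to 0.901).

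The ERAD genes with the highest ratios were SELENOS, HERPUD1 and SYVN1, all of the ubiquitin ligase complex in the ER membrane. SELENOS, a selenoprotein that binds VCP to the membrane (ENSG00000131871, chromosome 15, 101270817 to 101277500, minus strand), gave 323 and 775 reads. This is 21.0 and 53.2 CPM, 2.53-fold higher (2.22 to 2.89), the highest ratio of the 43 genes. HERPUD1, a ubiquitin-like scaffold of the ligase (ENSG00000051108, chromosome 16, 56932048 to 56944863, plus strand), had 461 and 1075 reads, 2.46-fold higher (2.21 to 2.75). The ligase itself, SYVN1 (ENSG00000162298, chromosome 11, 65121780 to 65134533, minus strand), had 461 and 997 reads, 2.28-fold higher (2.04 to 2.56), with 10.1% of its exon length shared with other genes. Intervals of these 3 genes overlap, so their order cannot be told apart from counting error.

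Most partners of the ligase had smaller ratios above 1. SEL1L, which holds the ligase and its substrate receptors together, had 1881 and 2745 reads, a ratio of 1.54 (1.45 to 1.64). The ubiquitin-conjugating enzyme UBE2J1 had 1140 and 1700 reads, a ratio of 1.57 (1.46 to 1.70), and the selenoprotein SELENOK 426 and 660, a ratio of 1.64 (1.45 to 1.85). The derlins, membrane proteins of the export step, differed from each other. DERL1 had 1530 and 2278 reads, a ratio of 1.57 (1.47 to 1.68), and DERL2 973 and 835, a ratio of 0.906 (0.825 to 0.995). DERL3 was counted 14 times and 1 time, which is 9.15-fold lower with counting bounds of 2.02 and 561. Genes on the other strand overlap 77.0% of the exon length of DERL3, with SMARCB1 the largest overlap. DERL3 was below the read minimum and is not in the counts above.

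The lectins and mannosidases that mark glycoproteins for ERAD all had ratios above 1. OS9, a lectin that reads trimmed glycans, had 1794 and 3163 reads, 1.86-fold higher (1.76 to 1.97), just under the 2-fold threshold. The members nearest to that threshold were thus OS9 below it and ERO1B above it at 2.27-fold. ERLEC1, the second such lectin, had 1043 and 1346 reads, a ratio of 1.36 (1.26 to 1.48). The mannosidase-like EDEM1, EDEM2 and EDEM3 had ratios of 1.32, 1.33 and 1.33, at 896, 524 and 1093 untreated reads. VCP, the ATPase that extracts substrates from the membrane and also serves many other pathways, had 10256 and 12476 reads, a ratio of 1.28 (1.25 to 1.32). In all, reads of the 15 ERAD genes were 22815 and 31206, or 0.148% and 0.215% of each library, 1.44-fold higher (1.42 to 1.47). Reads of the 17 folding genes were 81629 and 78730, or 0.528% and 0.542%, a ratio of 1.02 (1.01 to 1.03). Both sums lean on their most abundant gene. CANX alone gave 28097 and 30645 of the folding reads, at a ratio of 1.15, and VCP 10256 and 12476 of the ERAD reads.

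**Figure D2:**
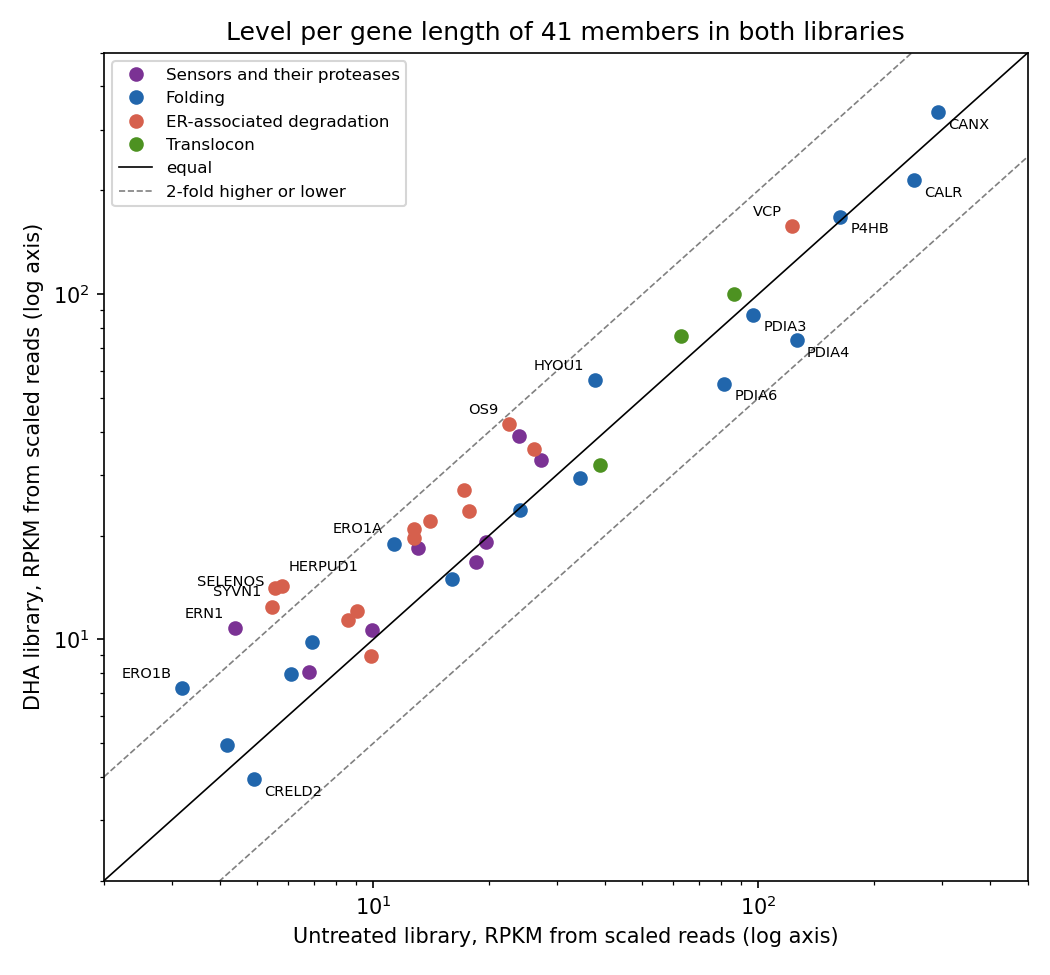
Level of the 41 compared members in the untreated (x) and DHA (y) library, in RPKM on log axes, each point 1 gene coloured by role. The 5 genes above the upper dashed line (2-fold) have untreated levels of 3.19 to 5.81, while PDIA4 and PDIA6 lie furthest below the line of equality among the abundant genes.

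The 5 genes that passed the size rule had 3.19 to 5.81 RPKM without DHA and 7.23 to 14.3 with it. Since the untreated level is the denominator of the ratio that chose them, this is a description only. With DHA, HERPUD1 (14.3), SELENOS (14.1), SYVN1 (12.4) and ERN1 (10.8) lay in the range of the ERAD genes below 2-fold. DERL2 (8.97), EDEM1 (11.4) and EDEM3 (12.1) are examples, and DERL2 was the lowest ERAD gene compared. ERO1B (7.23) lay below DERL2. CANX, the most abundant member, had 293 RPKM without and 337 with DHA, CALR 254 and 214, P4HB 163 and 168, and PDIA4 126 and 73.7. VCP was the most abundant ERAD gene, with 123 and 157. PDIA4 was thus above VCP without DHA and below it with DHA.

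The channel subunits of the Sec61 translocon, through which new proteins enter the ER, showed small differences. SEC61A1, the pore, had 6243 and 6867 reads, a ratio of 1.16 (1.12 to 1.20). The small subunit SEC61G had 1786 and 2034 reads, a ratio of 1.20 (1.13 to 1.28), and SEC61B 711 and 554, a ratio of 0.823 (0.735 to 0.921). All 3 subunits belong to 1 complex, yet SEC61B lay on the other side of 1 from its partners. Its log2 ratio of -0.28 became -0.09 once corrected for length and GC content, outside its main counting interval.

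A further 109 ER genes with the same roles were listed for function, and 105 had enough reads. Past 2-fold, 2 (1.90%) were higher and 4 (3.81%) lower, against 6.72% and 10.3% of all genes compared. The 39 further ERAD genes had a median log2 ratio of 0.26. Of them 31 (79.5%) were above 0, against 52.2% of all genes, and 0 were past 2-fold higher. Those 39 include paralogs of members (HERPUD2 and UBE2J2) as well as shuttle factors, deubiquitinases and other ligases. The 34 further folding genes had a median of 0.11, the 21 translocation genes 0.12 and the 11 genes around the sensors -0.22, against 0.04 for all genes. DNAJB9, a BiP co-chaperone that holds IRE1 inactive, had 302 and 632 reads, 2.21-fold higher (1.92 to 2.54). MOGS, the glucosidase that starts trimming of N-glycans, had 371 and 774 reads, 2.20-fold higher (1.94 to 2.50). Lower were the ubiquitin ligase gene TMEM129 with 696 and 192 reads (3.43-fold, 2.92 to 4.05) and the glycoprotein-binding F-box gene FBXO2 with 206 and 77 (2.52-fold, 1.94 to 3.34). The prolyl isomerase gene FKBP7 with 104 and 16 reads (5.997-fold, 3.62 to 11.2) and the ATF6-like factor gene CREB3L3 with 150 and 24 (5.82-fold, 3.83 to 9.53) were lower too.

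**Figure D3:**
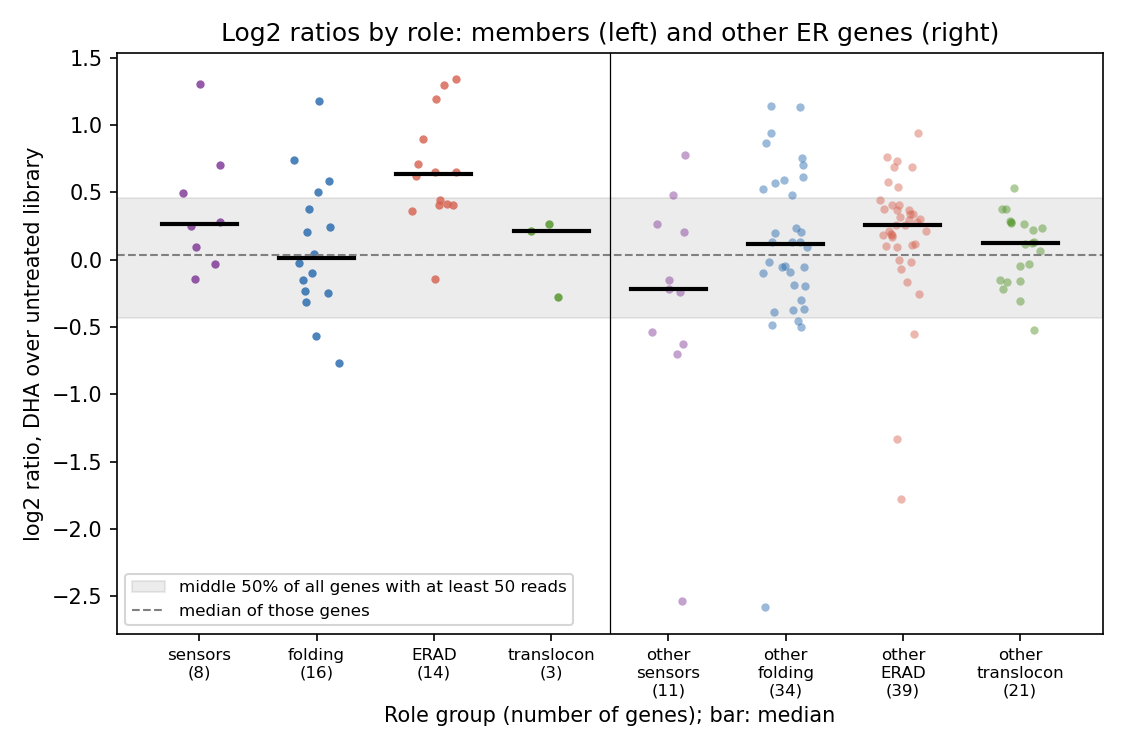
Log2 ratio of the DHA over the untreated library by role for the members (left) and the further ER genes (right), each point 1 gene with at least 50 reads, bars at group medians and the grey band the middle 50% of all 12064 genes (-0.43 to 0.46). The bar of the ERAD members, at 0.64, lies above the band, and that of the folding members, at 0.01, lies near the median of all genes.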

How the data were processed

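The authors deposited raw read counts per gene, whole numbers without normalization, and gene lengths in bases, per the file headers. No source used here states the aligner, the counting tool or its use of strand. The submitters' processing notes list mm8, a mouse build, but all 58735 genes matched GENCODE release 29 on human GRCh38 in identifier, coordinates, name and length. Counts were scaled by TMM (edgeR 4.0.16, R 4.3.3) and given as CPM, or as RPKM after division by gene length. Ratios used 0.5 added reads, and their 95% intervals are exact Clopper-Pearson intervals (scipy 1.17.1) of the DHA share of each gene's reads. They cover counting error only: PCR copies are not independent, and the spread between cultures is unknown. The calling was tested only on counts simulated with planted changes and counting error alone, so false calls from the spread between cultures were not tested. Members, lists and roles were chosen with earlier results of these data known. The naming rule takes members past the size rule, those whose interval lies wholly beyond 1.5-fold, and the extremes and most abundant of each role. The other members were named after their values were seen. One gene of the marker lists is not reported here.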

Additional observations from a re-analysis of the deposited data

How the results depend on the processing

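The alternatives were scaling by total reads, DESeq2 1.42.0 size factors or the upper quartile, minimums of 10, 500 or no reads, 1 read added, a 1.5-fold threshold, omission of genes with over 50% of their exons shared, and correction of the ratios for gene length and GC content. The medians ranged from 0.57 to 0.65 for ERAD, -0.05 to 0.07 for folding, 0.20 to 0.28 for sensor and 0.15 to 0.24 for translocon genes, and the ERAD median exceeded the folding median by 0.51 to 0.66. The same 5 members passed 2-fold higher under each alternative that kept that threshold, and 12 were higher and 1 (PDIA4) was lower at 1.5-fold. With a minimum of 10 reads or none, 1 member, DERL3, was lower in place of 0. Read minimums and the omission of genes leave a gene's own ratio as it is. Of the 205 gene values under the other settings 19 lay outside the main counting interval, 3 with DESeq2 size factors, 9 with the upper quartile and 7 after correction for length and GC content, and P4HB, MANF and SDF2L1 changed sign. No paired analysis was possible because each condition has 1 library. Depth limits TXNDC5 and DERL3.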
